A study of Mus musculus with 8 samples.

Results

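Genes of cytosolic ribosomal proteins were followed in liver total RNA of female C57/BL6 mice. They were chosen by symbol alone, as every gene of the probe annotation named Rps or Rpl with a number and at most 1 lower-case letter, together with Rplp0, Rplp1, Rplp2 and Rpsa. This gave 60 of the 16593 genes with a symbol, read by 77 probes, of which 23 encode proteins of the small subunit and 37 of the large subunit. The mice had fasted for 6 h, and 8 Illumina bead arrays were run. Each array stood for a single combination of a diet with 21% or 5% corn oil by weight, an age of 456 or 90 days (D456 or D90) and the F3 or F1 generation. The 8 groups, each 1 array, were F3 21% D456, F1 21% D456, F3 5% D456, F1 5% D456, F3 21% D90, F1 21% D90, F3 5% D90 and F1 5% D90. The labels give no other treatment and no genotype beyond the strain. They do not say if the RNA of an array came from a single mouse or from several, nor at what age or in which generation the diet was fed.

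The ribosome is built of a small subunit, which holds the mRNA and checks codons, and a large subunit, which joins amino acids. Each subunit carries its own set of proteins (Rps and Rpl) on ribosomal RNA, and cells make these proteins in matched amounts. Their mRNAs are abundant in liver, and most begin with a tract of pyrimidines through which the TOR kinase pathway controls their translation. The genes also have many processed pseudogenes, so a probe may read more than its own gene, and values of single probes are uncertain for that reason.

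Values are log2 of the deposited intensities. Background was not subtracted from them, and dim genes therefore show smaller differences than they have. A gene was tested where its probe with the highest mean lay above a log2 intensity of 6.95, the median of all probe means. By this bound 54 of the 60 genes (22 of the small and 32 of the large subunit) were tested among 8945 genes. Rps15a (mean 6.952) and Rpsa (6.976) lay just inside it, and Rpl14 (6.874), Rpl39l (6.867), Rpl6 (6.856), Rps23 (6.830), Rplp2 (6.825) and Rpl17 (6.782) lay outside. For these 8 genes the probes barely exceeded the dimmest probes of the arrays, so their flat values say little about their mRNA.

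Mean intensity was 457 on each array. Hepatocyte markers (9 of 10 measured) had a median log2 intensity of 14.42 to 14.51 on every array. Pancreas acinar markers (15 of 16 measured) had medians of 10.37 on F3 5% D456, 9.67 on F1 5% D456 and 8.94 on F3 5% D90, against 6.90 to 7.08 on the other 5 arrays. Skeletal muscle markers (8 of 8 measured) had medians of 8.52 on F1 5% D90 and 8.07 on F3 5% D456, against 6.90 to 7.12 elsewhere. Macrophage markers (9 of 12 measured) had their lowest median, 9.34, on F1 5% D90, against 9.87 to 10.92 elsewhere. Across the probes above the filter bound the F1 5% D90 array correlated with the others at 0.973 on average, against 0.985 to 0.990 for each of them, so results that rest on it are given with and without it. In such bulk RNA, fewer cells of a type and less RNA per cell cannot be told apart.

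The ribosomal protein genes differed most on the F1 5% D90 array, and they did not move as a block. With this array set against the mean of the other 7, 13 of the 54 genes (24.1%) were lower by at least 0.5 on the log2 scale, against 5.34% of all genes tested. None was higher by at least 0.5, against 3.67% of all genes (Rpl3l came closest, at +0.498). The median deviation was -0.11 for the 54 genes and +0.05 for all genes, and the standard deviation over genes was 0.53 for the ribosomal protein genes and 0.31 for all genes. As each combination had 1 array, these deviations carry no test.

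**Figure D1:**
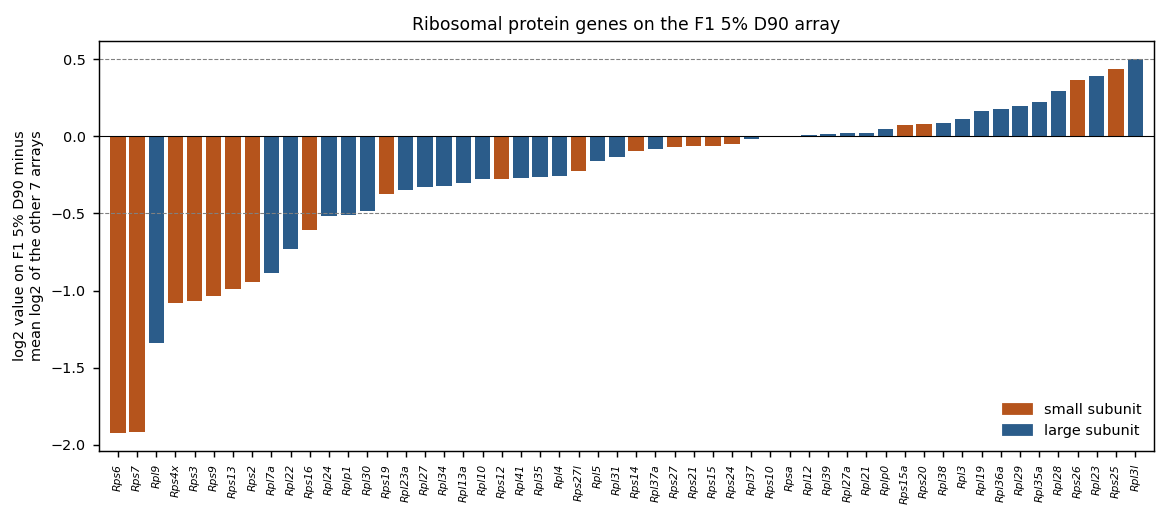
Deviation of each of the 54 tested ribosomal protein genes on the F1 5% D90 array, as log2 value minus the mean log2 value of the other 7 arrays (vertical axis), with genes ordered along the horizontal axis and bars coloured by subunit. Dashed lines mark -0.5 and 0.5, and the bars run from -1.92 (Rps6) to 0.50 (Rpl3l).

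Rps6 and Rps7 had the largest deviations. Rps6, the small-subunit protein phosphorylated by S6 kinase, stood at a log2 intensity of 10.58 on F1 5% D90. On the other arrays it stood at 12.54 (F3 21% D456), 12.19 (F1 21% D456), 12.83 (F3 5% D456), 12.86 (F1 5% D456), 12.24 (F3 21% D90), 12.47 (F1 21% D90) and 12.34 (F3 5% D90). The low array was below every other array, and those 7 spanned 0.67. Rps7, a small-subunit protein that can also bind Mdm2, stood at 10.81 on F1 5% D90 and at 12.66, 12.42, 13.08, 13.05, 12.51, 12.74 and 12.63 on the same 7 arrays in that order. Both genes were highest on the D456 arrays of the 5% diet.

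The other 11 genes of this group were Rpl9, Rps4x, Rps3, Rps9, Rps13, Rps2, Rpl7a, Rpl22, Rps16, Rpl24 and Rplp1. Rpl9, a large-subunit protein near the base of the stalk, was at 12.42 on F1 5% D90 and at 13.47 to 13.97 on the other 7 arrays. Rps4x, the X-linked form of the small-subunit protein S4, was at 11.89 against 12.74 to 13.20. Rps3, which lines the entry of the mRNA channel, was at 11.27 against 12.08 to 12.55. For all 13 genes the F1 5% D90 array was the lowest of the 8. The smallest gap to the next array was 0.25.

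Rps9 was at 11.11 against 11.91 to 12.36, and Rps13 was at 11.35 against 12.04 to 12.65. Both belong to the small subunit, as do 8 of the 13 genes. Rpl7a varied most without the low array: it was at 9.23 on F1 5% D90 and between 9.60 (F1 21% D456) and 10.77 (F3 21% D456) on the others. Rpl22, which has a paralogue in Rpl22l1, was at 9.31 against 9.81 to 10.27. Rplp1, a protein of the acidic stalk that recruits elongation factors, was at 13.69 against 13.98 to 14.38. Over the other 7 arrays the 13 genes spanned between 0.40 (Rplp1) and 0.67 (Rps6), except Rpl7a (1.17).

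**Figure D2:**
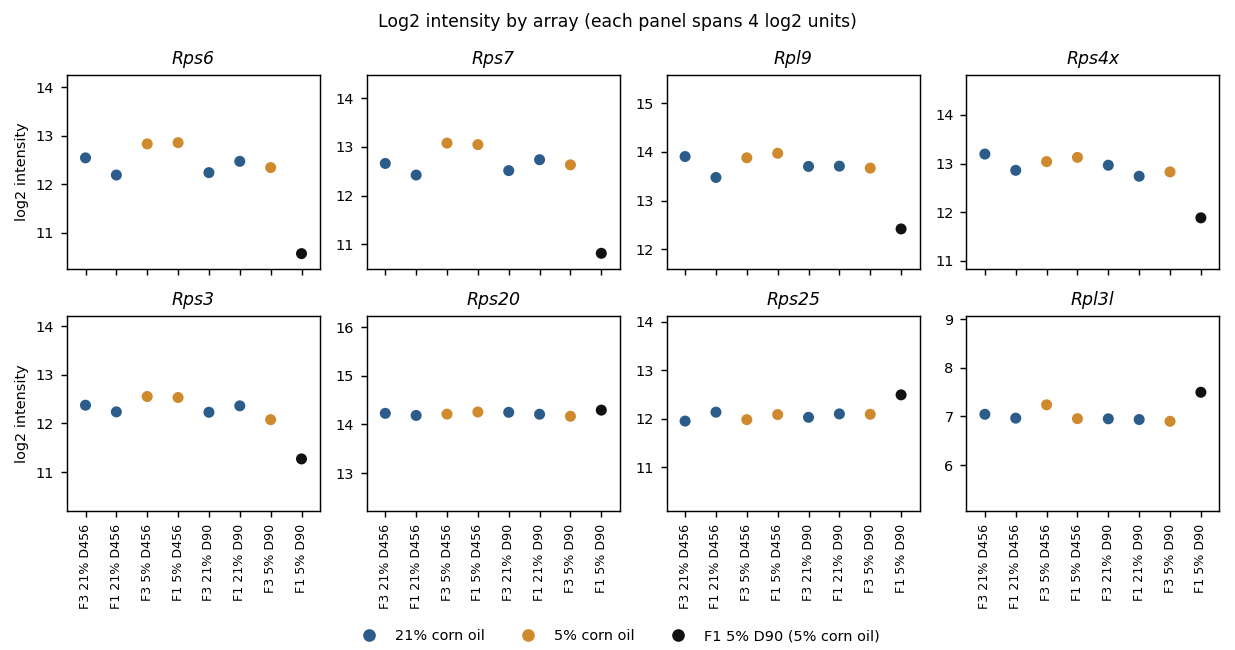
Log2 intensity (vertical axis, each panel spanning 4 log2 units) of 8 ribosomal protein genes on the 8 arrays (horizontal axis), with blue points for 21% corn oil, orange for 5% corn oil and black for F1 5% D90. In Rps6, Rps7, Rpl9, Rps4x and Rps3 the black point lies below all others, in Rps20 the points span 0.13, and in Rps25 and Rpl3l the black point is the highest.

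Other ribosomal protein genes went the other way on the same array. The F1 5% D90 array was below all 7 others for 27 of the 54 genes (50%), against 20.7% of all genes. It was above all 7 others for 13 (24.1%), against 37.8% of all genes. Apart from Rpl3l the highest were Rps25 (+0.44), Rpl23 (+0.39, by its probe with the highest mean) and Rps26 (+0.37). Rps25 is a small-subunit protein used in translation from internal entry sites, and Rps26 is a protein at the mRNA exit channel. Rps26 was at 12.85 on F1 5% D90 and at 12.36 to 12.64 on the other 7. The 4 genes with the smallest range over the 8 arrays were Rpsa (0.06), Rplp0 (0.09), Rps15a (0.12) and Rps20 (0.13). Of these Rpsa and Rps15a were at the filter bound and Rplp0, the core of the stalk, was dim at 7.42 to 7.51, while Rps20 was bright at 14.17 to 14.30.

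By subunit, the median deviation on F1 5% D90 was -0.16 for the 22 small-subunit genes, which ran from -1.92 to +0.44. It was -0.11 for the 32 large-subunit genes, which ran from -1.34 to +0.50. Both subunits thus held genes that were low and genes that were high on the array. The 2 genes with the lowest values and, apart from Rpl3l, the 2 with the highest are shown by the sequence around their RefSeq start sites in GRCm38.p6. They lie in the same list and yet went opposite ways, by the probe with the highest mean. For Rpl23 the direction depended on the probe, as another of its probes above the bound was at -0.38.

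Each sequence runs from 80 bases before the start to 20 after it, 5′ to 3′ on the gene's strand. Capitals mark CTTTC within 10 bases of the start, CCGGAAG (bound by GABP-type factors), GGGCGG (SP1 type), AAGATGGC (YY1 type) and TATAAA, on either strand, and any run of at least 8 bases that are all C or T between 10 bases before and 20 after the start. The run may overlap CTTTC. A run lying mostly before that stretch stays in lower case, as does one in Rps25. Rps6 also holds CCGGAAG within its 300 bases, outside the part printed.
Rps6 (chr4:86857348-86857447, minus strand): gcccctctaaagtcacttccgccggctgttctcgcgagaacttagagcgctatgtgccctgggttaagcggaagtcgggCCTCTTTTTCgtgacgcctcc
Rps7 (chr12:28635934-28636033, minus strand): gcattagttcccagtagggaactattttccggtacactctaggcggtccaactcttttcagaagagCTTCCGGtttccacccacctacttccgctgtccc
Rps25 (chr9:44407634-44407733, plus strand): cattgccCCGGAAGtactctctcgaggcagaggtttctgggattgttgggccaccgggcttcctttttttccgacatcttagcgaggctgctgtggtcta
Rpl23 (chr11:97782420-97782519, minus strand): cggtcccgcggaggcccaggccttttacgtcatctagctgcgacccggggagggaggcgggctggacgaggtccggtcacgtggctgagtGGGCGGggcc

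Promoter sequences of 300 bases were matched for 51 of the 60 genes (62 promoters). CCGGAAG was in 35.5% of them and in 8.86% of the 32851 promoters of the table. GGGCGG was in 59.7% of them and in 35.7% of all, AAGATGGC in 11.3% and 2.75%, and TATAAA in 8.06% and 13.6%. The run of C or T lay near the start in 32.3% of the ribosomal protein promoters and 11.2% of all, and CTTTC in 14.5% and 4.65%. Among the genes that were low on F1 5% D90, 3 of 13 promoters held CCGGAAG and 3 of 13 the run of C or T. Among the other tested ribosomal protein genes, 16 and 15 of 44 promoters held them. The definition of the run was chosen after the values had been seen, and a match is a description of letters, not of a bound site.

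Where several probes read 1 gene, they did not always give the same value on the F1 5% D90 array. Of 10 genes with more than 1 probe above the bound, 2 had a probe that was low by at least 0.5 beside a probe that was not. The 2 probes of Rps9 deviated by -1.03 and -0.08, from values of 11.11 and 11.53 on that array. Those of Rpl29 deviated by -0.99 and +0.20, and the one with the higher mean, which represents Rpl29 in the counts above, was the one at +0.20. Rpl23 had probes at +0.39, +0.18 and -0.38. Rps3 had both of its probes low, at -1.33 and -1.07.

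**Figure D3:**
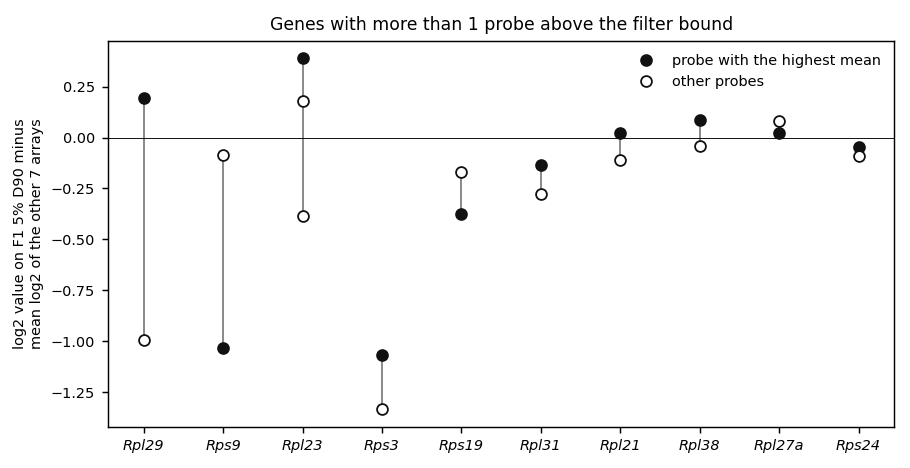
Deviation on the F1 5% D90 array (log2 value minus the mean of the other 7 arrays, vertical axis) of every probe above the filter bound for the 10 genes with more than 1 such probe (horizontal axis). Filled points are the probe with the highest mean and open points the other probes. The points of Rpl29, Rps9 and Rpl23 lie far apart, while both points of Rps3 lie at -1.07 or lower.

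Rps6 and Rps7 had 1 probe each, so no second probe of these genes bears on their values. The same disagreement showed in the age difference. The probes of Rpl29 gave +0.41 and -0.10, those of Rps9 +0.37 and -0.01, those of Rpl23 +0.15, -0.08 and -0.24, and those of Rpl31 +0.18 and +0.04. These 4 genes had the widest gaps between probes for age. Which of the probes reads its gene alone was not tested.

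By age, the ribosomal protein genes leaned slightly higher at day 456 than at day 90, and no gene passed. Of the 54 genes 40 (74.1%) had a positive difference, against 40.6% of all genes, with a median of +0.05 against -0.02. None passed by limma at an adjusted p of 0.05, where 0.101% of all genes did. At an unadjusted p below 0.05 there were 2 genes, Rps4x and Rpl23, which is 3.70% against 12.2% of all genes. The standard error of a difference had a median of 0.09 in these genes, and 4 arrays stood at each level.

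Rps6 averaged 12.61 at day 456 and 11.91 at day 90 (difference +0.70 ± 0.37 (SE), adjusted p = 0.451 by limma). Rps7 averaged 12.80 and 12.17 (+0.63 ± 0.38, adjusted p = 0.480). Rps4x averaged 13.06 and 12.61 (+0.45 ± 0.17, adjusted p = 0.368) and Rps3 12.43 and 11.99 (+0.44 ± 0.21, adjusted p = 0.429). The day 456 and day 90 arrays overlapped in each of these 4 genes. Rpl23, by its probe with the highest mean, averaged 13.81 at day 456 and 14.05 at day 90 (-0.24 ± 0.09, adjusted p = 0.375).

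Without the F1 5% D90 array the 4 largest age differences were +0.20 for Rps6, +0.11 for Rps7, +0.23 for Rps4x and +0.18 for Rps3. The median over the 54 genes was then +0.03, and 0 of them passed, against 23 of all genes. Among matched pairs of arrays the median difference of day 456 against day 90 was +0.20 in F1 and +0.12 in F3 on 5% corn oil. On 21% it was -0.12 in F1 and +0.06 in F3. The D456 arrays of the 5% diet were also those with the highest pancreas marker medians, and the part of pancreas transcripts in these values was not tested. With that marker level as a covariate, Rps6 was at -0.09 and Rps7 at -0.19 for age.

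Across the 4 pairs, 4 genes were higher at day 456 in every pair (7.41%, against 7.61% of all genes), namely Rpl10, Rpl30, Rpl37a and Rps4x. Rpl10, which joins the large subunit late in its assembly, was at 13.40, 13.61, 13.67 and 13.66 at day 456 (F3 21%, F1 21%, F3 5% and F1 5%). At day 90 it was at 13.38, 13.45, 13.45 and 13.24 in the same order. The groups overlapped. Rpl23 and Rpl35a were lower in every pair (3.70%, against 11.8% of all genes).

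By diet, no common direction was seen. With 21% against 5% corn oil 25 of 54 genes had a positive difference and 29 a negative one (median -0.01, against 0.00 for all genes). None passed by limma, as none of all genes did (0%), and at an unadjusted p below 0.05 there were 0 of 54, against 3.22% of all genes. The largest differences were those of Rpl7a (+0.28 ± 0.21, from means of 10.14 with 21% and 9.87 with 5%), Rpl22 (+0.25 ± 0.14), Rps4x (+0.22 ± 0.17) and Rpl9 (+0.21 ± 0.25). Their adjusted p was 0.99996 by limma. Without the F1 5% D90 array they were +0.18, +0.11, +0.004 and -0.11, and the median over the 54 genes was -0.05.

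The pairs differed in direction. On day 90 the median difference of 21% against 5% was +0.15 in F1, the pair with the low array, and +0.01 in F3. On day 456 it was -0.15 in F1, where 42 of 54 genes were lower with 21%, and -0.03 in F3. Of all 8945 genes, 5294 were higher with 21% in that F1 pair. The medians of all genes in the 4 pairs, in the order given, were -0.05, +0.01, +0.03 and +0.02. A set of 5 genes were lower with 21% in 4 of 4 pairs (9.26%, against 4.72% of all genes), namely Rpl19, Rpl28, Rpl29, Rpl35a and Rps26. All 5 had their highest value on F1 5% D90. The other probe of Rpl29 had a diet difference of the opposite sign (+0.07, against -0.09). Rpl4 was the only gene higher in 4 of 4 pairs (1.85%, against 5.35%).

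By generation, F3 stood slightly above F1, with 35 of 54 genes positive (64.8%, against 43.6% of all genes) and a median of +0.04, against -0.01. None passed by limma (0% of all genes did), and 1 gene, Rpl7a, had an unadjusted p below 0.05, which is 1.85% against 2.14% of all genes. Rpl7a averaged 10.25 in F3 and 9.76 in F1 (+0.50 ± 0.21, adjusted p = 0.988). On F3 arrays it stood at 10.77, 10.10, 10.28 and 9.86, and on the F1 arrays of the same diet and age at 9.60, 10.27, 9.93 and 9.23, so the groups overlapped. Rpl24 and Rpl4 were higher in F3 in 4 of 4 pairs (3.70%, against 4.59% of all genes), and Rpl29 and Rps25 were lower in 4 of 4 (3.70%, against 5.52%). For Rpl29 this too held for the probe with the higher mean (-0.10), while its other probe had +0.22. Rps7 and Rps6 both had +0.47 (SE 0.38 and 0.37) and Rpl9 +0.40 ± 0.25. Without F1 5% D90 they were -0.05, -0.03 and +0.07, and the median of the 54 genes was +0.01.

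**Figure D4:**
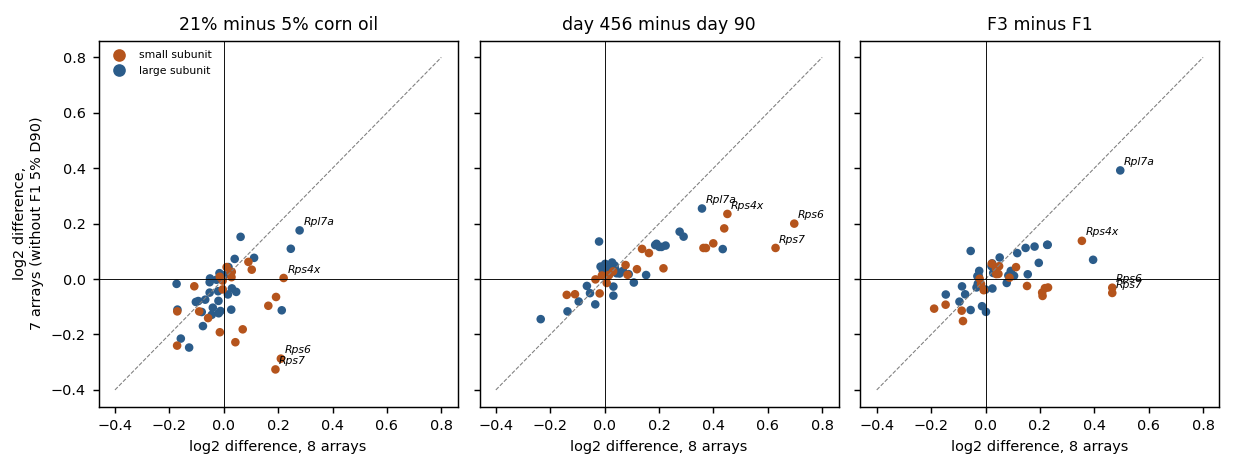
Log2 differences of the 54 ribosomal protein genes for diet, age and generation from all 8 arrays (horizontal axis) and from the 7 arrays without F1 5% D90 (vertical axis), coloured by subunit, with the dashed line marking equal values. For age Rps6 and Rps7 lie at 0.70 and 0.63 with 8 arrays and at 0.20 and 0.11 with 7, and for generation at 0.47 with 8 arrays and just below 0 with 7.

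Interactions asked whether a factor acted differently at the levels of another. For diet by age 14 of 54 genes (25.9%) had an unadjusted p below 0.05, against 11.8% of all genes, and all 14 were negative. None passed after adjustment by limma, as none of all genes did (0%). The smallest p-values were those of Rps16 (-0.75 ± 0.20) and Rplp1 (-0.56 ± 0.17), with an adjusted p = 0.403 for both. Rps16 was at 12.80 (F3) and 12.89 (F1) with 21% and at 12.73 and 12.24 with 5% on day 90. On day 456 it was at 12.76 and 12.61 with 21%, against 13.11 and 13.05 with 5%. The diet groups did not overlap in either age, and the order was opposite. Rps16 was picked for its small p and was among the genes low on F1 5% D90. On day 90 its F3 values lay close together.

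The diet by age values changed with which arrays of the 5% diet at day 90 were included. Without F1 5% D90, 5 of 54 genes (9.26%) had an unadjusted p below 0.05, against 5.15% of all genes, all 5 negative, and none passed. Rps16 was then at -0.53 ± 0.16 and Rplp1 at -0.38 ± 0.15 (adjusted p = 0.868 for both by limma). Without F3 5% D90, where the low array alone stood for 5% corn oil at day 90, 7 of 54 genes (13.0%) passed, against 2.59% of all genes, all 7 negative. These were Rps7 (-2.33 ± 0.21), Rps6 (-2.24 ± 0.24), Rpl9, Rps3, Rps9, Rps2 and Rps16, with adjusted p-values of 0.0109 to 0.0456 by limma. These fits have 2 residual degrees of freedom, and the lone array is assumed to vary like the others. Leaving out any of the other 6 arrays gave 0 genes passing.

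For age by generation 3 of 54 genes (5.56%) had an unadjusted p below 0.05, against 2.91% of all genes, and none passed (0% of all genes did). They were led by Rpl39 (-0.59 ± 0.22) and Rps26 (+0.36 ± 0.14, adjusted p = 0.996 for both). Rpl39, a very small protein of the exit tunnel, was at 13.18 and 12.94 on F3 arrays of day 456, against 13.38 and 13.31 on F3 arrays of day 90. In F1 it was at 13.37 and 13.23 on day 456, against 12.81 and 13.19 on day 90. Without F1 5% D90 Rpl39 was at -0.86 ± 0.13 (adjusted p = 0.161 by limma), and 11 of 54 genes (20.4%) had an unadjusted p below 0.05, against 9.80% of all genes. For diet by generation 0 of 54 genes had an unadjusted p below 0.05, against 1.17% of all genes (2 of 54 without F1 5% D90, against 2.48%), and none passed. The smallest p-values were those of Rps15a (+0.09 ± 0.06) and Rpl21 (+0.10 ± 0.07). Both genes were dim, at 6.90 to 7.02 and 7.11 to 7.26.

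The paralogue pairs were read separately. Rpl3l, the form of Rpl3 made in striated muscle, was at 7.50 on F1 5% D90 and 7.24 on F3 5% D456, and at 6.90 to 7.04 on the other 6 arrays. These were the 2 arrays with skeletal muscle markers (medians of 8.52 and 8.07). Rpl3 itself was at 13.43 on F1 5% D90 and at 13.25 to 13.38 on the others. Rps27l, whose gene responds to p53, was at 13.77 on F1 5% D90 and at 13.80 to 14.10 on the others, and Rps27 was at 13.04 against 12.96 to 13.19.

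Some of these proteins are known for roles outside the assembled ribosome or for disease. Rps7, described above, was among the lowest on F1 5% D90. Rpl5, which carries 5S ribosomal RNA and can bind Mdm2, was at 12.70 on F1 5% D90 and at 12.77 to 12.97 on the other 7. Rps19, the most often mutated gene in human Diamond-Blackfan anaemia, was at 12.84 against 13.05 to 13.35. Rpl13a, often used to normalize other genes, was at 9.55 against 9.73 to 9.97. Rpl38, needed in mouse embryos for translation of Hox mRNAs, was at 14.23 against 14.07 to 14.21. Rpl5, Rps19 and Rpl13a were lowest and Rpl38 was highest on F1 5% D90, each by less than the range of the other 7 arrays. Rpl11 was not analysed here.

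Lists of other parts of the translation machinery were read against the same shares of all genes on F1 5% D90, 5.34% low and 3.67% high. Of 70 genes of mitochondrial ribosomal proteins, 11 (15.7%) were lower by at least 0.5 and 0 were higher, with a median of -0.06. Mrpl53 was lowest (9.45, against 10.65 to 11.12 on the other 7), and Mrps12 followed (10.23, against 11.08 to 11.55). Of 9 genes listed as elongation factors 3 (33.3%) were low and 0 were high, with a median of -0.001 and Eef1d highest at +0.36. The list also holds Eef2k (-0.001), a kinase that acts on Eef2, and Eef1e1 (-0.43), which are not elongation factors themselves. Eef2, which moves the ribosome along the mRNA, was at 7.999 on F1 5% D90 and at 9.38 to 10.18 on the others, and Eif5a was at 9.15 against 10.01 to 10.84.

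Of 28 initiation factor genes 4 (14.3%) were low and 1 (3.57%) was high. Among them Eif4g2 was at 7.29 on F1 5% D90 and at 7.88 to 8.31 on the other 7, and Eif3c at 7.66 against 8.23 to 8.78. Of 45 ribosome assembly genes 3 (6.67%) were low and 2 (4.44%) high, shares near those of all genes. Nop10 (10.11, against 10.79 to 11.28), Nhp2 (8.77, against 9.36 to 9.88) and Nip7 (-0.52) were the low ones. Riok1 (+0.55) and Ubtf (+0.51) were the high ones. Nop10, Nhp2 and Gar1 are parts of the particles that make pseudouridine in ribosomal RNA. Gar1 went the other way, at 9.36 on F1 5% D90 against 8.73 to 9.15 on the other 7. The medians of these lists were +0.01 and +0.07, close to the +0.05 of all genes. Of 17 genes of the TOR and S6 kinase pathway none was low and 3 (17.6%) were high (median +0.10). Rheb came closest to the low bound, at -0.49 (10.19, against 10.61 to 10.77 on the other 7). The high ones were Pdpk1 (+0.86), Akt1s1 (+0.69), which encodes an inhibitor of TOR complex 1, and Rictor (+0.58). The list mixes activators and inhibitors, so these counts give no direction for the activity of the pathway. Rictor, a subunit of TOR complex 2, was at 9.08 on F1 5% D90 and at 8.22 to 8.83 on the others. The list also holds Pdk1 (9.64, against 9.29 to 9.98), which encodes a kinase of pyruvate dehydrogenase and not of this pathway. Of 9 genes of the p53 pathway 1 was low, Gadd45a (8.11, against 8.42 to 8.86), which had an age difference of +0.41 ± 0.11 (adjusted p = 0.242 by limma), and Cdkn1a was at 7.35 against 7.29 to 8.03. Of 6 other genes that encode ribosomal proteins or paralogues 1 was low, Rpl36al (12.54, against 12.99 to 13.34), and Rpl7l1 was at 8.93 against 9.15 to 9.57. In these 7 lists together with the 54 genes, 0 genes passed by limma for diet, age or generation.

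**Figure D5:**
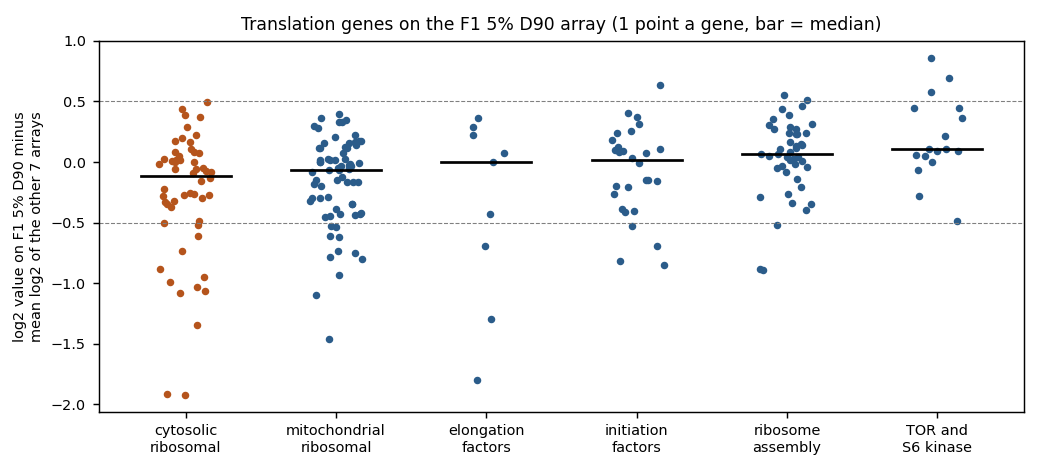
Deviation on the F1 5% D90 array (log2 value minus the mean of the other 7 arrays, vertical axis) for genes of 6 lists of the translation machinery (horizontal axis), with 1 point a gene and a bar at the median. Low points reach -1.92 in the cytosolic and -1.46 in the mitochondrial ribosomal list, and the TOR and S6 kinase list has none below -0.5.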

How the data were processed

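Liver total RNA of 8 samples was measured on Illumina bead arrays. Trizol extraction and a biotin label are named in the labels' protocols. Each probe has 1 deposited intensity per array, on a linear scale. They had been normalized between arrays before deposition, as the nearly equal array means show, by a method not given in the sources used here, and no detection p-values were used. Probe symbols came from the platform annotation: 23978 of 25697 probes had 1 symbol, 1719 had none. All 60 symbols were found in the RefSeq gene table of GRCm38.p6, used for names only. Of the 81 protein-coding symbols in that table that match the naming rule, 21 were not among the probe symbols and were not followed.

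Values were log2 transformed, and each gene was read from its probe with the highest mean. The fit used limma 3.58.1 in R 4.3.3, additive in diet, age and generation (4 residual degrees of freedom, 3 with an interaction), with an intensity trend and Benjamini-Hochberg adjustment over 8945 genes, two-sided. The labels give no replicate of any combination, so a p-value reflects spread among these arrays alone, which may be technical. The procedure was tested on simulated data in which all arrays had the same error spread. An array that stands apart, as F1 5% D90 did, was not simulated. Of changes of 0.5 on the log2 scale it recovered 64.0% to 67.2%, with 3.27% to 5.84% of calls false. Of changes of 1 it recovered 95.2% to 98.3%, with 4.07% to 4.83% of calls false.

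Named genes were those that passed, the 4 with the largest difference per factor, the 8 with the largest and 4 with the smallest range, the 2 with the smallest p per interaction, the 4 whose probes differed most, and a fixed set with known roles. Members and lists were chosen with earlier results of these data known. Alternatives were other scalings, subtraction of the array's own 5th percentile (pseudocount 16), filters, probe summaries, variance models, array weights, the pancreas marker level as a covariate and leaving out each array. Figures were drawn with matplotlib 3.10.9.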

Additional observations from a re-analysis of the deposited data

Results flagged for a closer look

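In 7 of 30 named ribosomal protein genes the lowest array lay far from the rest of the 8. The gap to the next array, as a share of the whole range, was above Dixon's 95% critical value for this number of arrays. The array was F1 5% D90 in each case. The share was 0.7101 for Rps7, 0.708 for Rps6, 0.680 for Rpl9, 0.652 for Rps4x, 0.642 for Rps9, 0.629 for Rps3 and 0.5262 for Rps13, the last barely above the critical value. All 7 are among the 8 genes that were named for the largest range, so these shares are a description and no test. The usual rate of about 1 in 20 sets by chance does not apply to genes chosen in that way. Over all 54 tested ribosomal protein genes F1 5% D90 lay that far below the others in 8 (14.8%), against 3.77% of all 8945 genes. On that array skeletal muscle markers had their highest median (8.52) and macrophage markers their lowest (9.34), and the part of either in these values was not tested.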

How the results depend on the processing

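No ribosomal protein gene passed by limma for diet, age or generation in any of the 9 other settings tried or in the 8 fits without 1 array, nor for an interaction in the 6 other settings run. In fits of the interactions without 1 array, chosen after seeing the data, 7 genes passed for diet by age without F3 5% D90 and 0 without each other array, and 0 passed for the other interactions. The count of low genes on F1 5% D90, 13, was 13 under other scalings and the mean of probes (5% to 5.38% of all genes) and 14 after background subtraction, where the share of all genes was 10.1% in place of 5.34%. It was 11 against the 4 other arrays without pancreas transcripts. Those 4 are the arrays of the 21% diet, so diet differed as well and cannot be told apart there. All of these settings were chosen after seeing the data. The count of low genes was 18 at a bound of 0.3 and 6 at a bound of 1. For these counts, and for the 11, the share of all genes is not given, so they cannot be set against it. With the pancreas marker level as a covariate the median diet difference was +0.12 (main -0.01), and Rps6 and Rps7 changed sign for age (-0.087 and -0.19) and for generation (-0.044 and -0.069). That covariate was high on 3 arrays of the 5% diet and low on F1 5% D90, and the cause was not tested. Leaving out 1 array gave -0.11 to +0.45 for Rpl9 by diet, -0.031 to +0.81 for Rps6 and -0.050 to +0.82 for Rps7 by generation, each negative only without F1 5% D90. Median differences over the fits without 1 array ranged from -0.05 to +0.03 for diet, +0.03 to +0.10 for age and +0.01 to +0.06 for generation. The labels number no replicates, so no replicate block was fitted. The additive fit compares each factor within the 4 pairs of arrays matched in the other factors, whose median differences had an SD of 0.124 for diet, 0.138 for age and 0.0839 for generation.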

Other observations

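Genes outside the ribosome were lower still on the F1 5% D90 array. The 5 lowest were A1bg (9.06, against 10.88 to 12.64 on the other 7 arrays), Lyz2, the lysozyme of macrophages (8.80, against 10.46 to 11.72), Dmbt1 (6.77, against 7.75 to 9.75), Glud1, glutamate dehydrogenase (9.39, against 11.16 to 11.86) and Akr1c12 (9.42, against 10.96 to 11.69). Of all genes tested, 5 had a lower deviation than Rps6.

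The genes low on F1 5% D90 also differed from all genes on the other 7 arrays. The mean of those 7 had entered the choice of these genes. Of the 13 ribosomal protein genes, 10 (76.9%) had their highest value of these 7 on a D456 array of the 5% diet, and of the 41 others 22 (53.7%) did. Of the 465 other genes that were low by at least 0.5 on F1 5% D90, 73.8% did, against 21.7% of all 8945 genes. In the F3 pair on 5% corn oil, which does not include the low array, the 13 genes were higher at day 456 than at day 90 in 13 of 13 (median +0.38). In the F3 pair on 21% they were higher in 12 of 13 (median +0.21), and in the F1 pair on 21% in 1 of 13 (median -0.28). The 465 other genes had medians of +0.27, +0.12 and -0.13 in the same 3 pairs, and all genes had -0.02, 0.00 and 0.00. These genes were grouped by their value on F1 5% D90 against the mean of the other 7 arrays. High values on those 7 help a gene enter the group, so the counts are a description with no test.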
